A study of Sus scrofa with 4 samples.

Results

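miR-208b and both arms of miR-499 (miR-499-5p and miR-499-3p) are made from introns of slow-type myosin heavy chain genes, and all 3 were among the 271 miRNAs listed for longissimus dorsi, a long back muscle, of pigs. They were chosen by name. The miRNAs were counted in small RNA libraries from Trizol-extracted total RNA of 4 breeds, with 1 library each. The indigenous Chinese type was represented by Diannan Small Ear pig and Tibetan pig, and the introduced type by Landrace and Yorkshire. The labels give no age, sex or batch, and do not say whether a library held 1 animal or a pool, so every comparison below measures the spread between 4 libraries, part of which may be technical.

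Slow, oxidative muscle fibres use the myosin heavy chain encoded by MYH7, and its intron carries miR-208b. MYH7B, a related slow-type myosin heavy chain gene, carries miR-499, whose precursor gives the abundant arm miR-499-5p and the rarer arm miR-499-3p. In RefSeq's Sscrofa11.1 gene table MIR208B lies within the span of MYH7 and MIR499 within that of MYH7B. In mice, miR-208b and miR-499 favour the slow fibre programme and repress transcripts of its repressors, such as Sox6. The longissimus dorsi is mainly a fast muscle.

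Library totals ran from 2507082 (Landrace) to 5346460 (Yorkshire) reads. The libraries stood apart in a way that the types do not follow. Across 197 miRNAs, log2(CPM + 1) of Diannan Small Ear and Landrace had a Pearson's r of 0.981, and Tibetan and Yorkshire one of 0.973, against 0.775 to 0.781 for the other 4 combinations of libraries (CPM are counts scaled to the library total). These resemblances are across miRNAs, which are not independent replicates. Whether labels were exchanged between types, or an unrecorded batch set the pairs, cannot be told apart from these values, and every breed name below is that of the label. Below, the first library pair is Diannan Small Ear with Landrace, and the second is Tibetan with Yorkshire. All 4 markers of skeletal muscle (miR-1, miR-133a-3p, miR-133b and miR-206) were present. Their summed CPM was 58101 in Diannan Small Ear and 897615 in Tibetan, against 72872 in Landrace and 966132 in Yorkshire. Most of the sum was miR-1 in Tibetan (834008 CPM) and Yorkshire (926438 CPM), where miR-206 was higher too. By CPM, miR-133a-3p and miR-133b went the other way. miR-133a-3p had 28732 and 11211 CPM in Tibetan and Yorkshire, against 54113.5 and 66791 in Diannan Small Ear and Landrace. The heart marker miR-208a was not among the listed miRNAs. Markers of other cells also varied between libraries by CPM, a scale that falls for all other miRNAs where miR-1 fills most of a library. Yorkshire, with the most miR-1, had the lowest sums of red blood cell, endothelial and stromal markers. The 2 red blood cell markers summed to 47.3 to 364 CPM, the 2 listed endothelial ones to 626 to 6429, the 2 of smooth muscle and stroma to 2586 to 28880, and liver, nervous and epithelial markers to at most 31.1. Their part in the results was not tested.

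miR-208b and miR-499-5p were ordered differently over the breeds. miR-208b had 521 reads in Diannan Small Ear (115.8 CPM) and 172 in Tibetan (47.9 CPM), against 1083 in Landrace (432 CPM) and 143 in Yorkshire (26.7 CPM). By CPM it was therefore highest in Landrace and lowest in Yorkshire, and the 95% counting intervals of the 4 libraries did not overlap. After TMM scaling, which adjusts for the few miRNAs that fill a library, its level was 86.9 CPM in Diannan Small Ear and 48.6 in Tibetan, against 195 in Landrace and 77.6 in Yorkshire. Landrace remained highest and Tibetan became lowest, while Diannan Small Ear and Yorkshire differed by less than counting error (1.12-fold, 95% interval 0.929 to 1.36).

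miR-499-5p had 239 reads in Diannan Small Ear (53.1 CPM) and 1300 in Tibetan (362 CPM), against 456 in Landrace (182 CPM) and 1088 in Yorkshire (203 CPM). Tibetan was highest and Diannan Small Ear lowest by CPM, with Yorkshire and Landrace close together between them. After TMM scaling the levels were 39.9 CPM in Diannan Small Ear and 367 in Tibetan, against 82.2 in Landrace and 591 in Yorkshire. Both scales placed Diannan Small Ear lowest, and the highest breed was Yorkshire with TMM and Tibetan with total counts. As these are whole-tissue libraries, fewer slow fibres and less of a miRNA per fibre cannot be told apart.

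miR-499-3p, the rarer arm, was detected in 1 breed of each type. It had 0 reads in Diannan Small Ear and 45 in Tibetan (12.5 CPM), against 0 in Landrace and 64 in Yorkshire (11.97 CPM). A count of 0 allows up to 0.667 CPM in Diannan Small Ear and 1.20 CPM in Landrace. By abundance rank among all miRNAs with reads, miR-208b stood 68th of 249 in Diannan Small Ear, 92nd of 246 in Tibetan, 53rd of 253 in Landrace and 79th of 232 in Yorkshire. For miR-499-5p the ranks were 86, 47, 73 and 32 in the same order of breeds. miR-133a-3p was the 3rd most abundant miRNA in all 4 libraries.

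**Figure D1:**
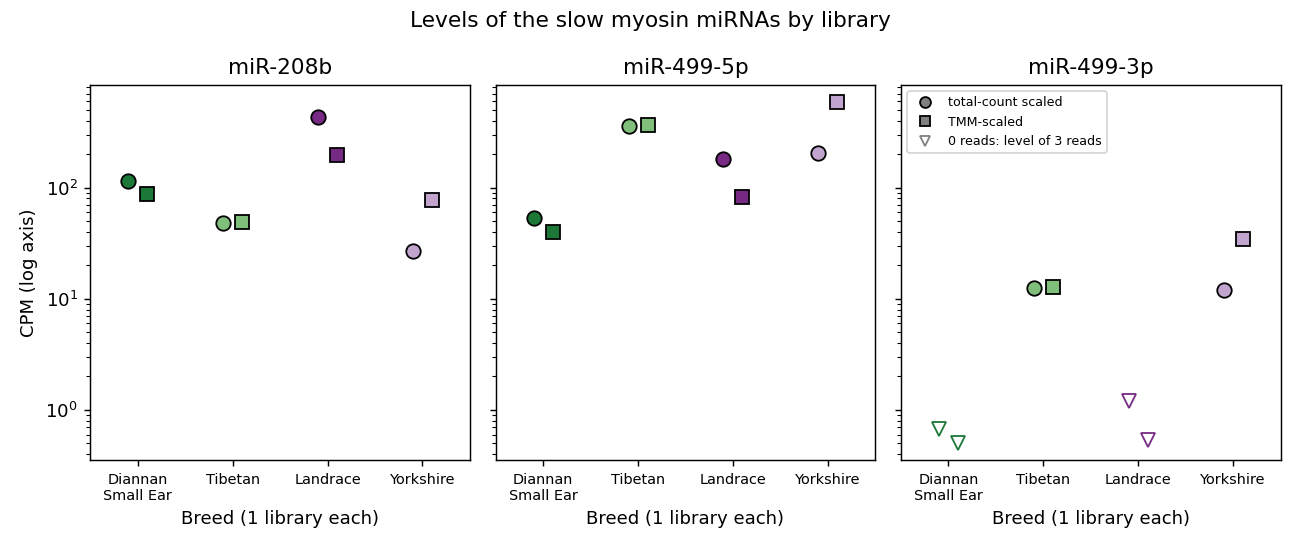
Levels of the 3 members (miR-208b and both arms of miR-499) in each library, in CPM on a log axis, scaled by total counts (circles) or by TMM (squares), with open triangles at the level that 3 reads would have where the count was 0. miR-208b is highest in Landrace on both scales, and miR-499-3p has reads in Tibetan and Yorkshire but 0 in Diannan Small Ear and Landrace.

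The ratio of miR-208b to miR-499-5p within a library, which depends on no scaling, separated the library pairs and not the types. The pairs were drawn from the resemblance of these same libraries, so a ratio that separates them is not independent of that choice. How many other ratios of miRNAs do so was not counted. There were 2.18 reads of miR-208b for each read of miR-499-5p in Diannan Small Ear (95% interval 1.87 to 2.55) and 0.132 in Tibetan (0.112 to 0.155), against 2.38 in Landrace (2.13 to 2.66) and 0.131 in Yorkshire (0.110 to 0.157). miR-208b was the more abundant miRNA in Diannan Small Ear and Landrace, and miR-499-5p in Tibetan and Yorkshire. The ratio was 16.4-fold higher in Diannan Small Ear than in Tibetan and 18.0-fold higher in Landrace than in Yorkshire. Within the library pairs the intervals overlapped, and the ratio of these ratios was 0.917 for Diannan Small Ear over Landrace and 1.01 for Tibetan over Yorkshire. Between types the mean log2 ratio was -0.90 ± 2.85 in indigenous and -0.84 ± 2.95 in introduced breeds (SD, n = 2 each), a difference of -0.06 (exact permutation test, two-sided, p = 1, where the smallest p that 2 against 2 allows is 0.333). Of the reads of the 3 members, miR-208b made up 68.6% in Diannan Small Ear and 11.3% in Tibetan, against 70.4% in Landrace and 11.0% in Yorkshire.

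**Figure D2:**
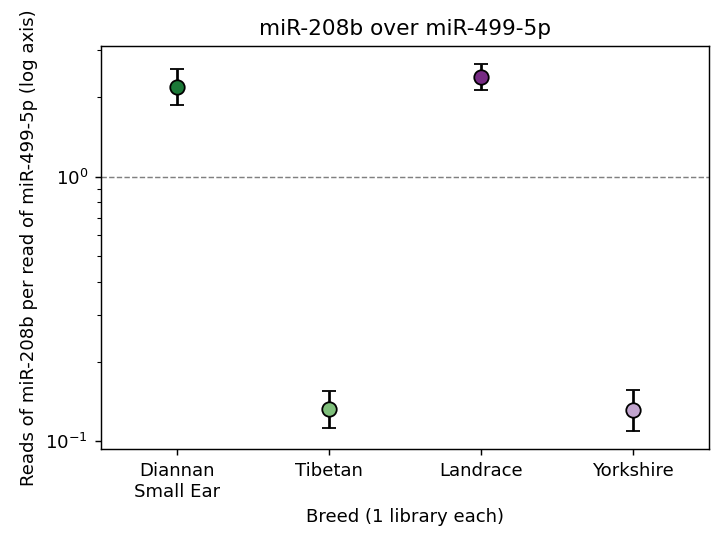
Reads of miR-208b per read of miR-499-5p in each library, on a log axis, with 95% exact binomial intervals that cover counting error only; the dashed line marks equal reads. Diannan Small Ear (2.18) and Landrace (2.38) lie above the line, and Tibetan (0.132) and Yorkshire (0.131) below it.

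Between the types, 0 of 3 members passed the threshold (an edgeR adjusted p under 0.05), and all 3 estimates were below 0, that is lower in indigenous breeds. Estimates below 0 were found for 77 of 197 tested miRNAs, and both miR-499 arms come from the same precursor. Over all 197 miRNAs tested 0 passed (0%), and 1 had an unadjusted p under 0.05 by edgeR and by DESeq2. With a term for the library pair, 16 had an unadjusted p under 0.05 and 1 passed, which was no member. TMM-scaled miR-208b averaged 67.8 ± 27.1 CPM in the indigenous libraries and 136 ± 83.2 CPM in the introduced ones (SD, n = 2 each). Its log2 fold change was -1.01 ± 0.99 (SE, edgeR adjusted p = 0.996), which was -0.03 without Landrace and -1.65 without Yorkshire. miR-499-5p averaged 204 ± 232 CPM in the indigenous libraries and 336 ± 360 CPM in the introduced ones, a log2 fold change of -0.72 ± 1.54 (edgeR adjusted p = 0.996). Values of the types overlapped for every member, both by TMM and by total counts. With TMM, 5.58% of tested miRNAs were lower and 8.12% higher in indigenous breeds without overlap.

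For miR-499-3p the fitted log2 fold change was -1.44 ± 3.0 (edgeR adjusted p = 0.996), which rests on 45 reads in Tibetan against 64 in Yorkshire, with 0 in the other breed of each type. The median log2 fold change of all tested miRNAs was 0.12 with TMM, -0.02 with RLE and 0.11 with total counts. With total counts the estimates of miR-499-5p and miR-499-3p turned, to 0.11 and 0.04, and that of miR-208b was -1.49. The direction of the miR-499 arms between types thus changed with the scaling. It also changed with single libraries, since the estimate of miR-499-5p was 0.02 without Diannan Small Ear and 1.17 without Yorkshire.

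In the authors' deposited table, miR-208b was lower in indigenous breeds, with a fold of 0.357 and an FDR of 2.18e-16. The means behind that fold in the authors' deposited table were 81.8 CPM for indigenous and 229 CPM for introduced breeds, and the higher one joins 432 CPM in Landrace and 26.7 in Yorkshire. miR-499-5p had a fold of 1.08 (FDR 0.815) and miR-499-3p a fold of 1.05 (FDR 1) in the authors' deposited table. For miR-499-3p the authors' deposited means of 12.5 and 11.97 CPM are those of Tibetan and of Yorkshire alone, where means over both libraries of a type are 6.26 and 5.99 CPM. An FDR under 0.05 was listed for 83 of 271 miRNAs in the authors' deposited table (30.6%), by a test on which the sources used here say nothing.

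Single breeds were compared without a test, since each had 1 library. Within the indigenous type, TMM-scaled miR-208b was 1.79-fold higher in Diannan Small Ear than in Tibetan (95% counting interval 1.50 to 2.14), while miR-499-5p was lower by a factor of 9.22 (8.02 to 10.6). Within the introduced type, miR-208b was 2.52-fold higher in Landrace than in Yorkshire (2.11 to 3.02), and miR-499-5p 7.18-fold lower (6.43 to 8.03). miR-208b and miR-499-5p thus lay on opposite sides of 1 in both comparisons. Against Tibetan, miR-499-3p was at least 25.4-fold lower in Diannan Small Ear, and it was at least 64.2-fold lower in Landrace than in Yorkshire, against the level of 3 reads in the library at 0. Across both type and library pair, Tibetan had 4.02-fold less miR-208b (3.42 to 4.74) and 4.47-fold more miR-499-5p (4.01 to 4.98) than Landrace with TMM. In Diannan Small Ear miR-499-5p was 14.8-fold lower than in Yorkshire (12.9 to 17.1). With total counts these 3 values were 9.02-fold less, 1.99-fold more and 3.83-fold lower, so the scaling moved them beyond the counting intervals.

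Differences of at least 2-fold were common between these libraries. With TMM, 36.5% of tested miRNAs lay at least 2-fold lower in Diannan Small Ear against Tibetan and 34% in Landrace against Yorkshire. The share at least 2-fold higher was 27.9% and 31%. Of 197 miRNAs, 25 had a lower ratio of Diannan Small Ear to Tibetan than miR-499-5p, and 28 a lower ratio of Landrace to Yorkshire. For miR-208b, 61 and 52 miRNAs had a higher ratio. miR-499-3p had the second lowest ratio of all tested miRNAs in both comparisons, with 0.5 reads added to each count.

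Within the library pairs, miR-208b and miR-499-5p moved by like amounts. Diannan Small Ear had 2.25-fold less miR-208b and 2.06-fold less miR-499-5p than Landrace with TMM. Of 197 miRNAs, 5 had a lower ratio of Diannan Small Ear to Landrace than miR-208b and 7 a lower one than miR-499-5p, an order that holds under any scaling. With TMM 4.08% of miRNAs, and with total counts 30.6%, were at least 2-fold lower in Diannan Small Ear. In Tibetan, miR-208b was 1.60-fold, miR-499-5p 1.61-fold and miR-499-3p 2.73-fold lower than in Yorkshire, where 10.2% of miRNAs were at least 2-fold lower. Here 37 miRNAs had a lower ratio than miR-208b, 36 than miR-499-5p and 10 than miR-499-3p. With total counts, which raise every ratio of Tibetan to Yorkshire, the same values read 1.79-fold, 1.78-fold and 1.05-fold higher in Tibetan, and 79.1% of miRNAs were at least 2-fold higher. The median log2 ratio of all tested miRNAs moved with the scaling too, being 0.17 with TMM and 1.69 with total counts for Tibetan over Yorkshire, and 0.03 and -0.70 for Diannan Small Ear over Landrace. Both miR-208b and miR-499-5p lay below the median of all miRNAs in both library pairs, a position that no scaling of a library can change.

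**Figure D3:**
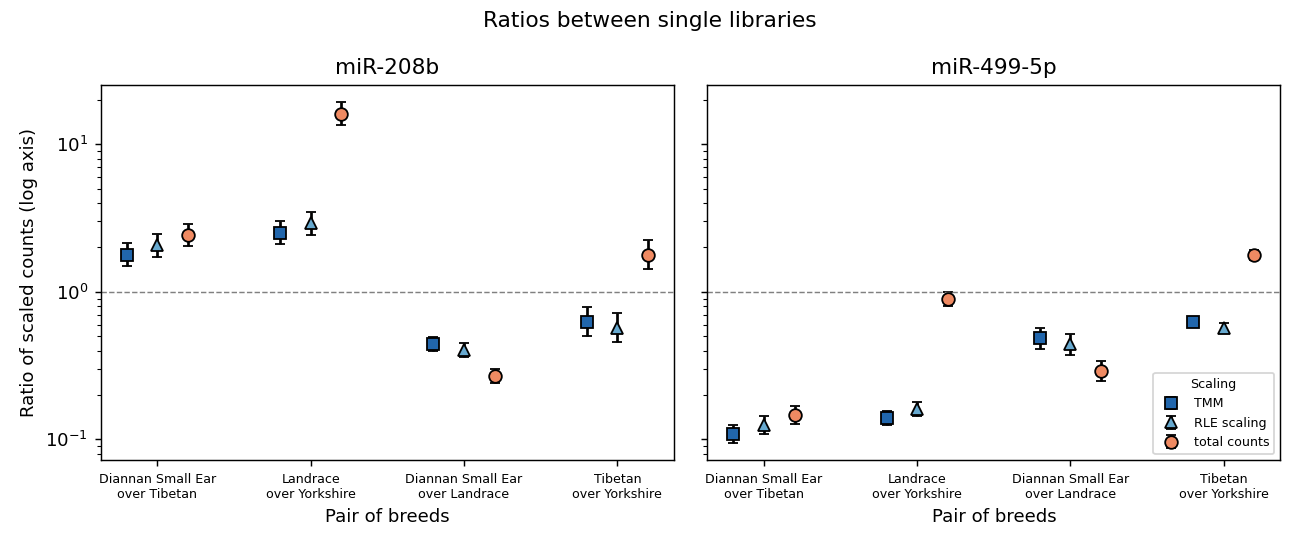
Ratios of miR-208b (left) and miR-499-5p (right) between single libraries on a log axis, after TMM, RLE or total-count scaling, with 95% exact binomial intervals that cover counting error only; the dashed line marks no difference. Diannan Small Ear over Landrace is below 1 for both miRNAs under the 3 scalings, and Tibetan over Yorkshire crosses 1 with total counts.

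Ratios to other muscle miRNAs, taken within each library, give the level of the slow myosin miRNAs per unit of muscle miRNA. The list held 9 names, of which 8 were in the table. Against miR-133a-3p, which acts on the proliferation of myoblasts, there were 2.14 reads of miR-208b per 1000 in Diannan Small Ear and 1.67 in Tibetan, against 6.47 in Landrace and 2.39 in Yorkshire. Both indigenous libraries lay below both introduced ones, though the counting intervals of Diannan Small Ear (1.96 to 2.33) and Yorkshire (2.01 to 2.81) overlapped. The types had a mean log2 difference of -1.06 (exact permutation test, two-sided, p = 0.333, the smallest possible), which was -0.34 without Landrace. Against miR-378, carried in an intron of the metabolic coactivator gene PPARGC1B, there were 11.6 reads of miR-208b per 1000 in Diannan Small Ear and 24.5 in Tibetan, against 34.1 in Landrace and 55.0 in Yorkshire. The types were again separate, with a mean log2 difference of -1.36 (exact permutation test, two-sided, p = 0.333, the smallest possible).

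miR-499-5p was separate between types against miR-133a-5p and miR-95. Per 1000 reads of miR-133a-5p, the other arm of the miR-133a precursor, there were 794 reads of miR-499-5p in Diannan Small Ear and 594 in Tibetan, against 1481 in Landrace and 1047 in Yorkshire. The mean log2 difference was -0.86. Per 1000 reads of miR-95 there were 2173 in Diannan Small Ear and 922 in Tibetan, against 6333 in Landrace and 3181 in Yorkshire, a mean log2 difference of -1.66. In all, 4 of the 16 ratios of miR-208b or miR-499-5p were lower in indigenous breeds without overlap, where the share was 3.83% over all tested miRNAs set against each of the 8 muscle miRNAs. In 3 of the 4, the counting intervals of the nearest libraries of the types were apart as well. The 16 ratios share their numerators and libraries, and are not independent. The 4 follow in part from miR-208b and miR-499-5p lying below the median of all miRNAs in both library pairs, and are not separate evidence.

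The remaining ratios followed the library pairs. How many of all tested miRNAs would do so against the same muscle miRNAs was not counted, and miR-1, miR-206 and miR-486 themselves stood apart between the pairs. Against miR-1, which promotes myoblast differentiation, miR-208b had 45.1 reads per 1000 in Diannan Small Ear and 0.0574 in Tibetan, against 121.6 in Landrace and 0.0289 in Yorkshire. Against miR-206, a miRNA of skeletal muscle, miR-208b had 195.8 reads per 1000 in Diannan Small Ear and 1.39 in Tibetan, against 351.5 in Landrace and 0.949 in Yorkshire. Against miR-486, made from an intron of ANK1 in muscle and red cells, the order was turned, with 0.982 reads of miR-208b per 1000 in Diannan Small Ear and 8.36 in Tibetan, against 3.03 in Landrace and 13.4 in Yorkshire. miR-133b, made from one transcript with miR-206, had the narrowest range of ratios to miR-208b by highest over lowest, and miR-133a-3p the smallest SD of the log2 ratio (0.858, against 0.865 for miR-133b). The highest ratio (332.6 per 1000, Landrace) to miR-133b was 3.75 times the lowest (88.4 per 1000, Yorkshire).

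For miR-499-5p the steadiest partner was miR-133a-5p, where the highest ratio was 2.49 times the lowest. Its ratio to miR-133a-3p, the abundant arm of the same precursor, varied 18.5-fold, with 0.981 reads per 1000 in Diannan Small Ear and 12.6 in Tibetan, against 2.72 in Landrace and 18.2 in Yorkshire. The ratios to miR-486 and miR-1 spread most widely, and for miR-486 there were 0.451 reads of miR-499-5p per 1000 in Diannan Small Ear and 63.2 in Tibetan, against 1.28 in Landrace and 102 in Yorkshire. Within the first library pair, all 8 ratios of miR-208b and all 8 of miR-499-5p had their lower value in Diannan Small Ear and their higher one in Landrace. In the second, 5 of 8 were lower in Tibetan than in Yorkshire for either miRNA, and 3 were higher, those to miR-1, miR-133b and miR-206. Each of these counts follows from where its numerator stood among all 197 miRNAs in that pair, and is not separate evidence. In the first pair 5 miRNAs lay lower than miR-208b and 7 lower than miR-499-5p. In the second these numbers were 37 and 36.

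**Figure D4:**
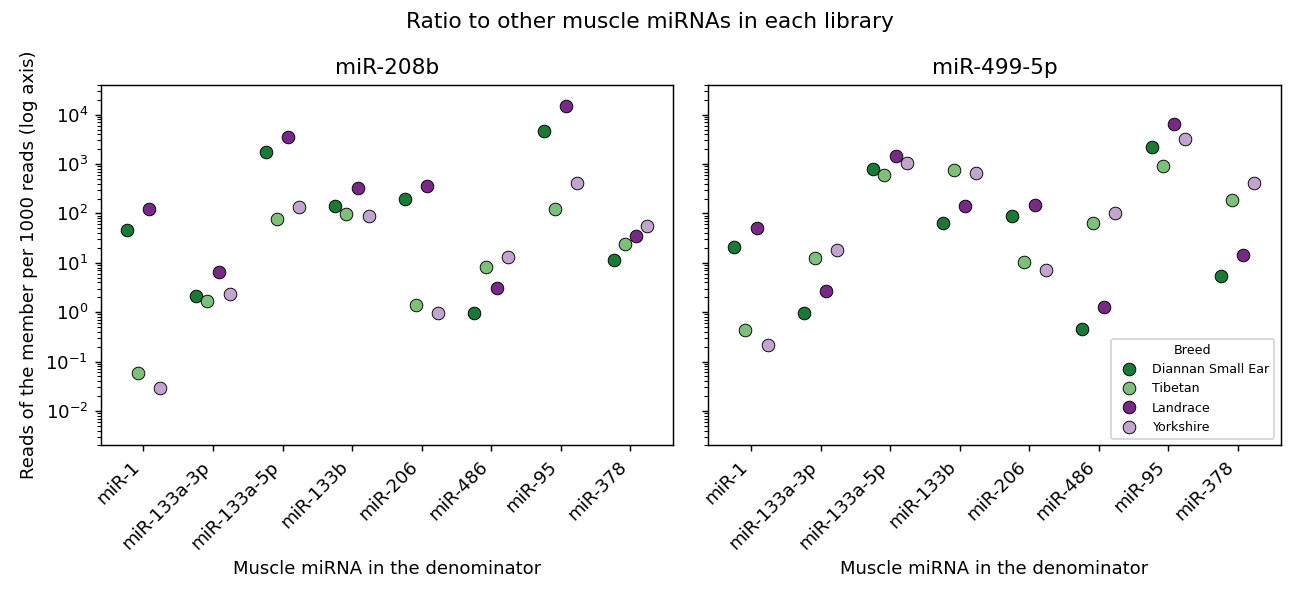
Reads of miR-208b (left) and miR-499-5p (right) per 1000 reads of each of 8 muscle miRNAs, on a log axis, with 1 point per library. miR-208b varies 3.75-fold against miR-133b and miR-499-5p 2.49-fold against miR-133a-5p, while both vary by over 2 orders of magnitude against miR-1.

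The 3 members together made up 0.0907% of the reads of the muscle miRNAs (members included) in Diannan Small Ear (95% Wilson interval 0.0845 to 0.0974) and 0.0466% in Tibetan (0.0443 to 0.0490), against 0.268% in Landrace (0.255 to 0.282) and 0.0250% in Yorkshire (0.0237 to 0.0264). With miR-1 left out of the sum, the shares were 0.0920% in Diannan Small Ear and 0.581% in Tibetan, against 0.273% in Landrace and 0.568% in Yorkshire. The order of the breeds thus changed with miR-1, which held 83.4% of the Tibetan and 92.6% of the Yorkshire reads. Without miR-1, miR-486 held 530497 of 826442 muscle reads in Diannan Small Ear and 356992 of 564427 in Landrace. It held 20567 of 261235 in Tibetan and 10670 of 228165 in Yorkshire. Shares with miR-486 left out as well were not computed.

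The miRNAs most like each member were found by the SD over the 4 libraries of their log2 ratio to it, among 136 others with a mean of at least 10 CPM. For miR-208b these were miR-221-3p (SD 0.26), miR-98 (0.44), miR-30a-3p (0.48), miR-30e-3p (0.50) and miR-27b-3p (0.51), where the median SD was 1.31. For miR-499-5p they were miR-185 (0.40), miR-21 (0.44), miR-23a (0.53), miR-542-3p (0.53) and miR-450a (0.55), with a median of 1.87. miR-499-5p was 109th of 136 in likeness to miR-208b, and miR-208b 90th of 136 in likeness to miR-499-5p (SD 2.37). With that SD between the members, no miRNA could be among the 5 nearest to both, so the separate lists are not a further result.

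The arms of miR-499 could be compared within each library. miR-499-3p made up 0% of the 239 reads of both arms in Diannan Small Ear and 3.35% of 1345 in Tibetan (95% exact interval 2.45 to 4.45), against 0% of 456 in Landrace and 5.56% of 1152 in Yorkshire (4.30 to 7.04). Read as up to 3 reads, a count of 0 allows a share of up to 1.26% in Diannan Small Ear and 0.658% in Landrace. The 95% exact intervals reach 1.53% and 0.806%. miR-499-5p outnumbered miR-499-3p 28.9-fold in Tibetan (21.5 to 39.8) and 17.0-fold in Yorkshire (13.2 to 22.2). With miR-499-3p set to the level of 3 reads, miR-499-5p would do so 79.7-fold in Diannan Small Ear and 152-fold in Landrace.

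Among 47 precursors with both arms listed, miR-499 had the 3rd highest mean log2 ratio of 5p to 3p. That mean has 0.5 reads added to each count, and miR-499-3p had 0 reads in Diannan Small Ear and Landrace. The rank of miR-499, and which precursors are nearest to it, therefore depend on the reads added. The minor arm was lower in Diannan Small Ear and Landrace than in Tibetan and Yorkshire, without overlap, for 42.6% of these precursors and higher for 36.2%, so this pattern was common. The precursors nearest to miR-499 in mean arm ratio were miR-30c, miR-30b and miR-450b. The minor arm of miR-450b held 0% in Diannan Small Ear and 1.45% in Tibetan, against 0.373% in Landrace and 1.79% in Yorkshire. That of miR-30c held 0.566% in Diannan Small Ear and 0.501% in Tibetan, against 1.18% in Landrace and 1.31% in Yorkshire, and that of miR-30b 0.544% to 1.38% over the 4 breeds. Reads listed apart as miR-30c-1-3p were not counted for miR-30c. Its minor arm share and its nearness to miR-499 leave them out. Of the 47 minor arms, 3 had 0 reads in Diannan Small Ear and 1 in Landrace, miR-499-3p included. In Tibetan 1 minor arm and in Yorkshire 3 had 0 reads, miR-499-3p not among them.

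**Figure D5:**
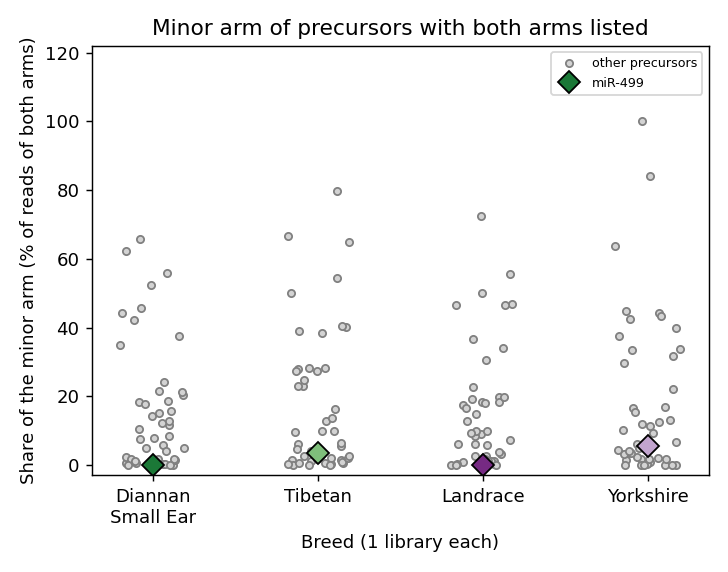
Share of the minor arm in the reads of both arms, in percent, for 47 precursors in each library, with miR-499 as a diamond. The miR-499 share is 0% in Diannan Small Ear and Landrace, 3.35% in Tibetan and 5.56% in Yorkshire.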

How the data were processed

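Small RNA of longissimus dorsi muscle was sequenced in 1 library for each of 4 breeds, per the labels. The authors deposited whole-number read counts for 271 known miRNAs, per the file headers. They also deposited CPM values, which for the 3 members equalled count over library total, and a mean signal per type, left without the libraries at 0 for miR-499-3p. The authors' deposited fold is the ratio of these means, and p-values and FDR were deposited as well. The sources used here give neither their test nor the aligner, the reference miRNAs or the build. How near-identical miRNAs such as miR-208a and miR-208b were separated is not given either.

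The counts were compared between types (indigenous over introduced, 2 libraries each) with the two-sided quasi-likelihood test of edgeR 4.0.16, after filterByExpr and TMM scaling, with Benjamini-Hochberg adjustment over 197 miRNAs and a threshold of 0.05. The script was tested on simulated data. The SE given with a log2 fold change is its absolute value divided by the square root of the F statistic of edgeR. Breeds were compared by ratios of scaled counts with 95% exact binomial intervals, which cover counting error only, since reads are not independent molecules. Ratios of 2 miRNAs within a library need no scaling and were compared on the log2 scale with 0.5 reads added. A count of 0 was read as allowing up to 3 reads.

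The members, the lists of muscle miRNAs and markers, and the library pairs were chosen with earlier results of these data known. The text names all members, the muscle miRNAs of the list, the 5 miRNAs of at least 10 mean CPM whose log2 ratio to a member varied least over the 4 libraries, and the 3 precursors nearest to miR-499 in mean arm ratio (at least 10 reads on each arm over all libraries). Alternatives were RLE and total-count scaling, no filter, at least 50 counts in 2 libraries, DESeq2 1.42.0, the table without its 5 most abundant miRNAs, a term for the library pair, 1 or 2 reads added, and each library left out. Host genes were looked up by name in RefSeq's Sscrofa11.1 gene table.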

Additional observations from a re-analysis of the deposited data

How the results depend on the processing

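Of the comparison of types, 0 miRNAs passed under every alternative but the library pair term, where 1 passed, which was no member. With that term the edgeR adjusted p over all miRNAs was 0.554 for miR-208b (log2 fold change -0.93 ± 0.45, SE, unadjusted p = 0.0394) and 0.466 for miR-499-5p (-0.86 ± 0.35, unadjusted p = 0.0144). The biological coefficient of variation was 35.3% with it and 98.6% without it. The estimate of miR-208b stayed below 0 under all alternatives run. With total counts that of miR-499-5p was 0.11 and that of miR-499-3p 0.039. Leaving out 1 library gave -1.65 to -0.03 for miR-208b, -3.07 to 1.17 for miR-499-5p and -9.26 to 7.93 for miR-499-3p, where an arm at 0 makes the value depend on the prior count. The library left out on the positive side was Diannan Small Ear or Yorkshire for miR-499-5p and Yorkshire for miR-499-3p. miR-499-3p did not reach 50 counts in 2 libraries and was not tested there. No paired analysis was possible because the labels carry no replicate numbers that pair libraries, and the library pair term rests on resemblance in these data.

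With total counts, miR-208b was 2.42-fold for Diannan Small Ear over Tibetan, 16.2-fold for Landrace over Yorkshire, 0.268-fold for Diannan Small Ear over Landrace and 1.79-fold for Tibetan over Yorkshire. miR-499-5p was 0.147-fold, 0.894-fold, 0.292-fold and 1.78-fold in the same order, and miR-499-3p 1.05-fold for Tibetan over Yorkshire. RLE scaling gave miR-499-5p 0.125-fold, 0.161-fold and 0.567-fold for Diannan Small Ear over Tibetan, Landrace over Yorkshire and Tibetan over Yorkshire.

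With 1 library left out, types are unbalanced over the library pairs. The log2 difference of miR-208b over miR-499-5p then ran from -2.14 to 2.03. For the 16 ratios to muscle miRNAs, 42 of 64 values with a library left out kept their direction and 22 did not. Adding 1 or 2 reads changed no direction and could hardly do so at these counts. Those of miR-208b ran from -6.24 to 5.80 over miR-1, -3.25 to 1.42 over miR-133a-5p, -1.50 to 0.41 over miR-133b, -4.41 to 4.12 over miR-206, -2.70 to 0.39 over miR-486 and -4.35 to 0.92 over miR-95. Those of miR-499-5p ran from -4.09 to 3.77 over miR-1, -2.84 to 0.84 over miR-133a-3p, -2.26 to 1.28 over miR-133b, -2.27 to 2.09 over miR-206, -4.66 to 2.47 over miR-486 and -3.86 to 1.25 over miR-378. The cause was not tested. Depth limits miR-499-3p, where 0 reads allow up to 1.20 CPM.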
